A study of Mus musculus with 16 samples.

Results

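The MAP kinase phosphatases of the DUSP family were followed as 10 genes of the 25105 in the expression table: Dusp1, Dusp4, Dusp5, Dusp6, Dusp7, Dusp8, Dusp9, Dusp10, Dusp14 and Dusp16. They were picked out by gene symbol, with earlier results of these data known, and no cut-off on a measured value was used. The cells were dispersed pancreatic islet cells of adult Grp78 flox/flox mice, in which both copies of Hspa5, the gene for the endoplasmic reticulum chaperone GRP78, can be cut by Cre recombinase. There were 4 cultures of each of 4 islet preparations (F1, M1, M2, F2), and each preparation carries 2 animal numbers in its labels. The 4 groups were Ad-LacZ or Ad-Cre, each with DMSO or with the JNK inhibitor (written Ad-LacZ + JNK inhibitor, Ad-Cre + JNK inhibitor), 4 libraries in each. Ad-LacZ and Ad-Cre are adenoviruses for a control protein and for Cre, so every islet cell type could be transduced and every group carried a virus and the floxed alleles. The inhibitor was JNK-IN-8, which acts on all JNK kinases, added at the start. All cultures were kept for 72 hours in 15 mM glucose, and each gave 1 poly(A) RNA library whose values are RPKM (reads per kilobase of gene, scaled to the depth of the library).

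MAP kinases (ERK, JNK and p38) are switched on by phosphorylation of a threonine and a tyrosine, and DUSP proteins remove both phosphates. Many DUSP genes are themselves induced by the kinases that their products switch off, which makes them feedback genes. By the usual grouping Dusp5, Dusp6, Dusp7 and Dusp9 are directed at ERK, Dusp8, Dusp10 and Dusp16 at JNK and p38, Dusp1 and Dusp4 are nuclear with broad substrates, and Dusp14 is a small atypical member that lacks the kinase-binding domain. In islets these kinases relay glucose, cytokine and endoplasmic reticulum stress signals.

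The libraries held 7.72 to 25.5 M reads (median 22.0 M). The shallowest, Ad-Cre + JNK inhibitor F2, also carries another prefix and lane in its column header than the other libraries, and the called values of members in its group are given with and without it. Markers of beta cells summed to between 33138.8 and 84105.4 RPKM per library, and each of the 5 acinar markers was under 1 RPKM in all of them. Macrophage markers (sum 82.9 to 351 RPKM) and stellate markers (21.8 to 676 RPKM) varied with group and preparation. The targeted gene, Hspa5, was 438 ± 49.0 RPKM (SD, n = 4) in Ad-LacZ and 1264 ± 231 RPKM (SD, n = 4) in the libraries labelled Ad-Cre, which is 1.51 higher in log2 (SE 0.18, limma's adjusted p = 0.00224). This RPKM is summed over the whole gene, of which Cre removes only some exons, so it does not measure the deleted part and cannot check the label. Virus directions are given as those of the libraries labelled Ad-Cre. Counts of preparations that were higher or lower are on the TMM-scaled log2 scale of the tests unless RPKM is named.

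The windows before the gene starts are printed for the 4 members that hold a match to TGACNTCA, the site family that includes the cyclic AMP response element TGACGTCA, which dimers of ATF proteins and Jun, a substrate of JNK, are known to bind. RefSeq (GRCm38.p6) gave a window for 8 of the 10 members, all but Dusp4 and Dusp9, and the 250 bases before each start were searched on both strands. Capitals mark the matches, and bases that lie in an annotated exon of the gene are not printed. Dusp8 (ENSMUSG00000037887) spans chr7:142079490-142095843, Dusp16 (ENSMUSG00000030203) chr6:134715468-134792625, Dusp1 (ENSMUSG00000024190) chr17:26505590-26562128 and Dusp10 (ENSMUSG00000039384) chr1:184013302-184075636 in GENCODE vM21 (GRCm38), so the windows of all but Dusp16 lie inside the gene model, outside its exons. The Dusp8 window is chr7:142095285-142095534, minus strand, Dusp16 chr6:134792629-134792878, minus strand, Dusp10 chr1:184034131-184034380, plus strand and Dusp1 chr17:26508520-26508722, minus strand.
Dusp8: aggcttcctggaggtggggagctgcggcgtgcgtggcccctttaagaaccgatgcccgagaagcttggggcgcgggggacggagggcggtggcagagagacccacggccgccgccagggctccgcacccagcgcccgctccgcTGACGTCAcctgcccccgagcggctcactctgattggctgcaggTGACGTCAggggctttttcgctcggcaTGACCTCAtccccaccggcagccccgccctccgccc
Dusp16: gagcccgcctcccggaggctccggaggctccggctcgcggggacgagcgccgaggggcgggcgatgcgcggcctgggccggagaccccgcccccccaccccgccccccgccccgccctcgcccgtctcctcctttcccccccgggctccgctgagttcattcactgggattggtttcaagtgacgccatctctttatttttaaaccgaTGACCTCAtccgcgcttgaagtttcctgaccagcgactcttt
Dusp10: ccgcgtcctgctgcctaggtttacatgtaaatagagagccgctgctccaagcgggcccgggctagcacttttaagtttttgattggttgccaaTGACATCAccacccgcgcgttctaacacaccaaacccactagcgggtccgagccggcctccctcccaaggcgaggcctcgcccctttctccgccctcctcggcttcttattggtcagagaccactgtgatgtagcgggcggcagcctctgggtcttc
Dusp1: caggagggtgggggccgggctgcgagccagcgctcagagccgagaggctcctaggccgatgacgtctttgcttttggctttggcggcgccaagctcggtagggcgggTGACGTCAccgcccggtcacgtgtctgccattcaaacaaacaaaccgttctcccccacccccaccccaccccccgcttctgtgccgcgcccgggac

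The Dusp8 window held 3 matches, which began 107, 63 and 36 bases before the start, and the first 2 of them had the full letters TGACGTCA. Dusp16 held 1 match that began 42 bases before the start, Dusp10 held 1 that began 157 bases before, and Dusp1 held 1, with the letters TGACGTCA, that began 143 bases before. All 3 JNK/p38-directed members and 1 nuclear member thus had a match, while Dusp5, Dusp6, Dusp7 and Dusp14 had none in these windows. Of 32851 promoters of the same length, 7.49% held TGACNTCA, 1.55% held TGACGTCA and 6.75% held TGANTCA, the shorter AP-1 site, which no member window held. Every TGACGTCA is also counted under TGACNTCA. Dusp8 and Dusp16 shared a run of 12 bases around their proximal match, atgacctcatcc, which began 37 bases before the start of Dusp8 and 43 before that of Dusp16 and occurs in 6 of the 32851 promoters. This run was picked out after the sequences were seen, and 1 of the 28 pairs of members, Dusp7 and Dusp16, shared a longer one of 15 bases. A match is a run of letters and no measure of binding.

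Of the 10 members, 9 were above 1 RPKM in every library and entered each test. Dusp9 did not: it lay between 0.121 and 0.767 RPKM, on 7 to 49 reads per library, and its level is given only as a value. Behind the other members stood 92 to 2312 reads per library, leaving out Dusp1, whose values were not whole reads at the annotated gene length (GENCODE vM21), so that its level relative to other genes is less certain. In Ad-LacZ the highest mean was that of Dusp4, 22.4 ± 9.69 RPKM (SD, n = 4), a phosphatase of the nucleus. Dusp8 followed with 14.2 ± 3.54, Dusp5 with 13.3 ± 2.07, Dusp10 with 9.32 ± 2.05, Dusp14 with 9.08 ± 0.895, Dusp7 with 9.02 ± 3.02, Dusp1 with 8.09 ± 2.67, Dusp16 with 5.37 ± 0.868, Dusp6 with 4.88 ± 1.54 and Dusp9 with 0.415 ± 0.213 RPKM (SD, n = 4 each). In this order each member overlapped its lower neighbour in range except Dusp6, whose lowest library was above the highest of Dusp9. Under the inhibitor in Ad-LacZ Dusp8 moved from the second place to the eighth, with Dusp4 first and Dusp5 second.

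**Figure D1:**
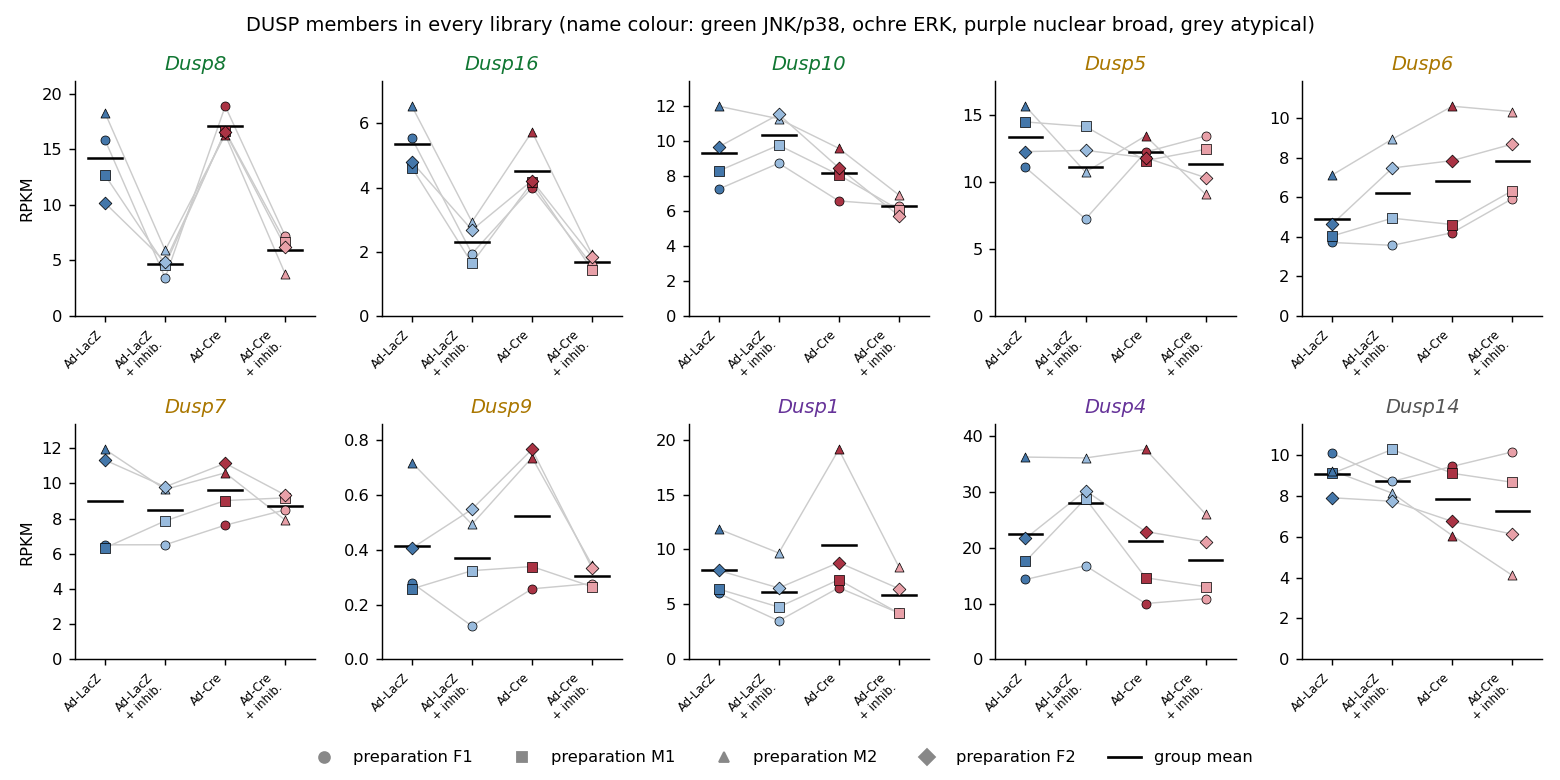
RPKM of the 10 members (vertical axis, from 0, own scale per gene) in the 4 groups (horizontal axis). Each symbol is 1 library, grey lines join the libraries of a preparation, and black bars are group means. The 8 inhibitor libraries of Dusp8 and of Dusp16 lie below all 8 libraries without inhibitor, whereas no other member shows this split. The share of all genes with this split over both viruses was not computed. Within 1 virus, on the TMM-scaled log2 scale, 2.57% of all genes in Ad-LacZ and 2.27% in Ad-Cre were lower without overlap.

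The question put to the inhibitor comparison was which genes depended on JNK activity. With the inhibitor in Ad-LacZ, Dusp8 and Dusp16 fell and no other member was called. Both are directed at JNK and p38: Dusp8 is a phosphatase known from neurons, and Dusp16 (MKP-7) is a cytoplasmic one that binds JNK. Of the 9 members tested these 2 were called lower and 0 higher at an adjusted p under 0.05. Over all genes 6 were called lower (0.0515%), Dusp8 and Dusp16 among them, and 17 higher (0.146%). By the criteria of the study, an unadjusted p under 0.05 and a fold change above 1.2, the same 2 were called lower, against 2.14% of all genes.

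Dusp8 was 15.8, 12.6, 18.2 and 10.1 RPKM in the Ad-LacZ libraries F1, M1, M2 and F2. With the inhibitor it was 3.44, 4.59, 5.92 and 4.89 RPKM in the same order. Every inhibitor library lay below every control library, and the pairs differed by 2.07 to 4.60 times in RPKM. The log2 fold change was -1.40 (SE 0.16, 95% interval -1.76 to -1.05, limma's adjusted p = 0.0193), and by p Dusp8 ranked number 5 of 11657 genes. The exact two-sided permutation test, which ignores the pairing by preparation, gave p = 0.0286, the smallest that 4 against 4 libraries allow.

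Dusp16 was 5.53, 4.62, 6.53 and 4.79 RPKM in Ad-LacZ (F1, M1, M2, F2) and 1.94, 1.65, 2.93 and 2.68 RPKM with the inhibitor. The groups did not overlap, as for 2.57% of all genes that were lower without overlap, and each preparation fell, by 1.79 to 2.84 times in RPKM. The log2 fold change was -0.96 (SE 0.12, 95% interval -1.22 to -0.70, limma's adjusted p = 0.0232; exact permutation p = 0.0286), number 8 of 11657 genes by p. Leaving out 1 preparation kept both log2 fold changes between -1.52 and -1.27 for Dusp8 and between -1.02 and -0.92 for Dusp16. The adjusted p then missed the threshold for Dusp8 without F1 (0.145), M1 (0.19) or M2 (0.123), and for Dusp16 without any of the 4 (0.15 to 0.199). Both also missed it without a filter on low values (0.0538 and 0.0787) and on RPKM as deposited (0.0645 and 0.106).

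Dusp10 (MKP-5), the remaining JNK/p38-directed member, was 7.27, 8.31, 12.0 and 9.68 RPKM in Ad-LacZ and 8.75, 9.78, 11.3 and 11.5 RPKM with the inhibitor. The ranges overlapped and it was higher in 3 of 4 preparations, with a log2 fold change of 0.15 (SE 0.10, 95% interval -0.08 to 0.38, limma's adjusted p = 1.00). The ratio of Dusp8 to Dusp10 within a library was 1.05 to 2.18 in Ad-LacZ and 0.393 to 0.525 with the inhibitor, and that of Dusp16 to Dusp10 was 0.495 to 0.76 and 0.168 to 0.26. Both ratios were lower in every inhibitor library.

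The same inhibitor in the libraries labelled Ad-Cre gave lower Dusp8 and Dusp16 again, in libraries that the first comparison did not use. These libraries came from the same islet preparations as the first, so the comparisons are not independent of each other. Dusp16 passed the adjusted threshold narrowly. Dusp8 did not in the 8 libraries of this comparison, but did with the preparation as a term of the fit and with all 16 libraries in 1 fit (adjusted p = 0.0139). One of the 9 members was called lower and 0 higher. Over all 11503 genes 1 was called lower (0.00869%), which is Dusp16 itself, and 1 higher (0.00869%). With the preparation as a term of the fit (blocked) 3 members were called lower (Dusp8, Dusp16 and Dusp1), against 2.1% of all genes. By the criteria of the study Dusp8 and Dusp16 were called lower, against 2.32% of all genes.

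Dusp16 was 4.00, 4.16, 5.74 and 4.22 RPKM in Ad-Cre (F1, M1, M2, F2) and 1.58, 1.44, 1.92 and 1.84 RPKM in Ad-Cre + JNK inhibitor. The groups did not overlap, as for 2.27% of all genes that were lower without overlap, and the fall was 2.29 to 2.99 times per preparation. The log2 fold change was -0.91 (SE 0.10, 95% interval -1.14 to -0.68, limma's adjusted p = 0.0499; blocked adjusted p = 0.0123), number 2 of 11503 genes by p. Without the shallow library it was -0.92 (adjusted p = 0.255). This call was lost under 11 of 14 alternatives, among them each preparation left out (adjusted p = 0.535 without F1, 1.00 without M1, 0.145 without M2 and 0.564 without F2), while the log2 fold change kept between -1.20 and -0.86.

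Dusp8 was 18.9, 16.6, 16.3 and 16.5 RPKM in Ad-Cre and 7.19, 6.67, 3.77 and 6.19 RPKM with the inhibitor. Again each inhibitor library was below each library without it, by 2.49 to 4.32 times within a preparation. The log2 fold change was -1.26 (SE 0.21, 95% interval -1.74 to -0.78, limma's adjusted p = 0.194; blocked adjusted p = 0.0096; exact permutation p = 0.0286), number 12 of 11503 genes by p. Without the shallow library it was -1.25 (adjusted p = 0.465). Dusp10 was 6.59, 8.08, 9.60 and 8.49 RPKM without and 6.33, 6.09, 6.93 and 5.75 RPKM with the inhibitor, a log2 fold change of -0.19 (SE 0.11, 95% interval -0.44 to 0.07, limma's adjusted p = 0.763). In RPKM it was lower in each of the 4 preparations, on the TMM-scaled log2 scale in 3 of 4, and its ranges overlapped. Without the shallow library the log2 fold change was -0.12 (adjusted p = 0.936).

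**Figure D2:**
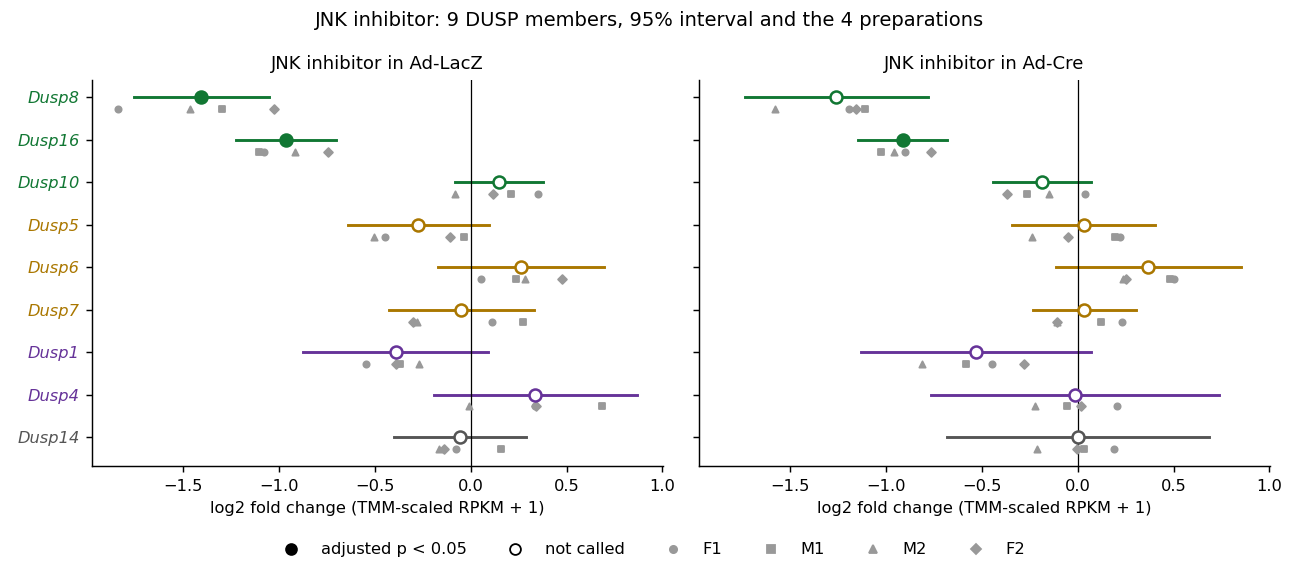
Log2 fold change of the 9 tested members (horizontal axis) with the JNK inhibitor in Ad-LacZ (left) and in Ad-Cre (right). Large circles are limma's estimates (filled where the adjusted p was under 0.05), bars are 95% intervals, and small grey symbols are the 4 preparations. All 4 preparations of Dusp8 and Dusp16 are below 0 on both sides. The intervals of all other members hold 0, among them the JNK/p38-directed Dusp10.

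Cell type markers moved with the inhibitor as well. In Ad-LacZ the 8 macrophage markers summed to 82.9 to 93.2 RPKM without and 161 to 351 RPKM with it. Of the 8, 4 were called higher, against 0.146% of all genes, and 1 with the block, against 0.249%. The 8 beta cell markers summed to 51226.9 to 83745.8 RPKM without and 35158.6 to 60150.5 RPKM with it, none of the 8 called. The 6 stellate and fibroblast markers summed to 23.5 to 105 and 43.6 to 507 RPKM, none of the 4 tested called without the block and 1 called higher with it. In Ad-Cre the macrophage sums were 85.2 to 243 RPKM without and 198 to 339 RPKM with the inhibitor. The stellate sums were 21.8 to 676 and 25.6 to 145 RPKM, lower with the inhibitor in M2 (676 and 145) and F2 (175 and 108). The 3 delta and PP markers summed to 2820.3 to 5166.9 RPKM without and 4802.5 to 9565.5 RPKM with it, higher in 4 of 4 preparations. No marker of these lists was called in Ad-Cre without the block. With it 1 marker each of the macrophage, delta and PP, alpha and endothelial lists was called higher, against 4.66% of all genes. The 5 alpha cell markers were all higher there, with a median log2 fold change of 0.48. Their part in the DUSP values was not tested, and in bulk libraries fewer cells of a type and less RNA per cell cannot be told apart.

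**Figure D3:**
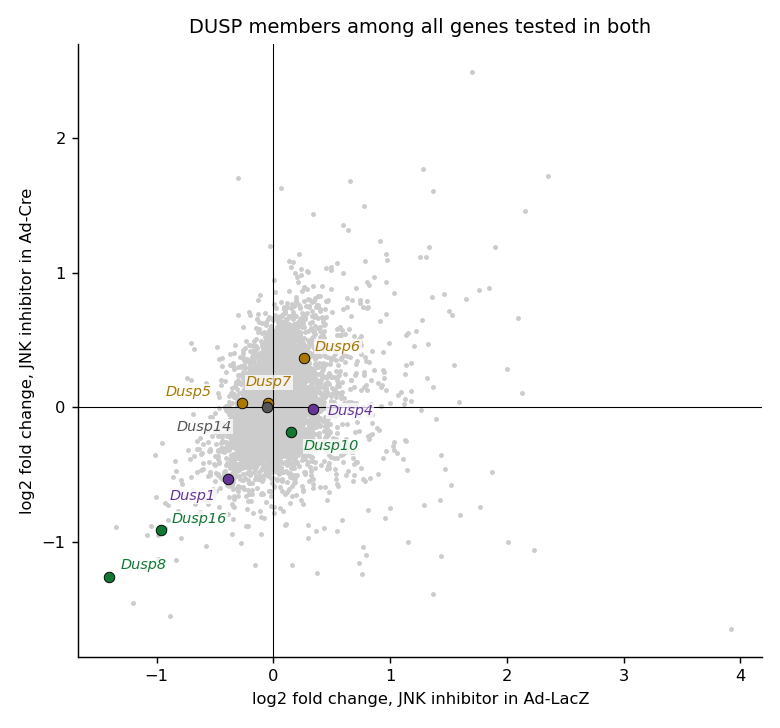
Log2 fold change with the JNK inhibitor in Ad-LacZ (horizontal axis) against that in Ad-Cre (vertical axis). Shown are the 11222 genes tested in both (grey) and the 9 members (green JNK/p38-directed, ochre ERK-directed, purple nuclear, grey atypical). The comparisons share no library but come from the same islet preparations. Dusp8 (-1.40 and -1.26) and Dusp16 (-0.96 and -0.91) lie at the lower left, and the other members lie within 0.53 of 0 on both axes.

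The ERK-directed members had no called change with the inhibitor in either background. Dusp5, a nuclear phosphatase of ERK, was 11.1 to 15.6 RPKM in Ad-LacZ and 7.23 to 14.1 RPKM with the inhibitor, a log2 fold change of -0.27 (SE 0.16, 95% interval -0.64 to 0.10, limma's adjusted p = 0.975). It was lower in 4 of 4 preparations on the TMM-scaled log2 scale, while in RPKM F2 was 12.2 without and 12.3 with the inhibitor. In Ad-Cre it was 11.6 to 13.4 RPKM and 9.06 to 13.4 RPKM, a log2 fold change of 0.03 (95% interval -0.34 to 0.41). Dusp6 (MKP-3), the cytoplasmic ERK phosphatase, was 3.71, 4.04, 7.12 and 4.64 RPKM in Ad-LacZ and 3.57, 4.94, 8.93 and 7.47 RPKM with the inhibitor. On the TMM-adjusted scale it was higher in 4 of 4 preparations, by a log2 fold change of 0.26 (SE 0.19, 95% interval -0.17 to 0.70, limma's adjusted p = 1.00). In Ad-Cre it was also higher in 4 of 4 on that scale (in RPKM M2 was 10.6 without and 10.3 with the inhibitor), by 0.37 (SE 0.21, 95% interval -0.11 to 0.85, limma's adjusted p = 0.752; blocked adjusted p = 0.0527). Dusp7, a cytoplasmic relative of Dusp6, had log2 fold changes of -0.05 (95% interval -0.43 to 0.33) and 0.03 (95% interval -0.23 to 0.30). The median of the 3 tested ERK-directed members was -0.05 in Ad-LacZ and 0.03 in Ad-Cre, beside -0.02 and -0.01 over all genes. The median of the 3 JNK/p38-directed members was -0.96 and -0.91, which is the value of Dusp16 itself. Dusp10, of the same group, had 0.15 and -0.19, with intervals that hold 0, so these medians do not describe all 3.

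Dusp1 (MKP-1), an early response gene whose product acts on JNK, p38 and ERK, was 6.01, 6.40, 11.9 and 8.09 RPKM in Ad-LacZ and 3.50, 4.76, 9.68 and 6.49 RPKM with the inhibitor. In Ad-Cre it was 6.52, 7.25, 19.1 and 8.81 RPKM, and 4.22, 4.19, 8.42 and 6.43 RPKM with the inhibitor. It was lower in 4 of 4 preparations in both, and the groups overlapped, with M2 the highest library of each. The log2 fold change was -0.39 in Ad-LacZ (SE 0.21, 95% interval -0.87 to 0.09, limma's adjusted p = 0.936; blocked adjusted p = 0.127). In Ad-Cre it was -0.53 (SE 0.26, 95% interval -1.13 to 0.07, limma's adjusted p = 0.688; blocked 0.036), and -0.56 without the shallow library. Dusp4 (MKP-2), its nuclear relative, had log2 fold changes of 0.34 (95% interval -0.19 to 0.87) in Ad-LacZ and -0.01 (95% interval -0.77 to 0.74) in Ad-Cre. Dusp14 had -0.06 (95% interval -0.40 to 0.29) and 0.00 (95% interval -0.68 to 0.69).

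Several members differed between preparations in every group. Dusp4 in M2 was 26.0 to 37.6 RPKM over the 4 groups and in F1 10.0 to 16.8 RPKM, so that the highest F1 value was under the lowest M2 value. Dusp6 was likewise higher in M2 and F2 than in F1 and M1 within each group, and Dusp14 was lower in F2 than in F1. The stellate and fibroblast markers, which include collagen genes, summed to 105 to 676 RPKM in M2 and 21.8 to 43.6 RPKM in F1. Their part in the levels of Dusp4, Dusp6 and Dusp14 was not tested.

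The comparison of the libraries labelled Ad-Cre with Ad-LacZ was made to ask how the cells answered the loss of GRP78. None of the 9 members was called, against 16.9% of all 11590 genes (32.9% at an unadjusted p under 0.05, where none of the 9 was found either). With the preparation as a block Dusp6 was called higher, against 15.7% of all genes called higher. Dusp6 was 3.71, 4.04, 7.12 and 4.64 RPKM in Ad-LacZ and 4.21, 4.62, 10.6 and 7.85 RPKM in Ad-Cre. It was higher in 4 of 4 preparations, by a log2 fold change of 0.36 (SE 0.21, 95% interval -0.12 to 0.84, limma's adjusted p = 0.277; blocked adjusted p = 0.0292). Dusp8, at 10.1 to 18.2 RPKM and 16.3 to 18.9 RPKM, had a log2 fold change of 0.27 (95% interval -0.10 to 0.65, adjusted p = 0.29) and was higher in 3 of 4. Dusp16 had -0.21 (95% interval -0.44 to 0.02, adjusted p = 0.189) and was lower in 4 of 4. The other 6 members had log2 fold changes between -0.21 and 0.25, and those of Dusp1 and Dusp4 had intervals of -0.33 to 0.83 and -0.90 to 0.59 on the log2 scale.

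Under the inhibitor the libraries labelled Ad-Cre had less Dusp10 than those of Ad-LacZ. Dusp10 was 8.75, 9.78, 11.3 and 11.5 RPKM in Ad-LacZ + JNK inhibitor (F1, M1, M2, F2) and 6.33, 6.09, 6.93 and 5.75 RPKM in Ad-Cre + JNK inhibitor. The groups did not overlap, as for 14.5% of all genes that were lower without overlap, and the pairs differed by 1.38 to 2.01 times in RPKM. The log2 fold change was -0.52 (SE 0.11, 95% interval -0.76 to -0.28, limma's adjusted p = 0.0106; exact permutation p = 0.0286). Of the 9 members it alone was called, against 10.5% of all 11598 genes called lower, and by p it ranked number 931. One call among 9 members is near the share of all genes and does not set the family apart. Without the shallow library the log2 fold change was -0.44 (adjusted p = 0.04), and the call was lost without preparation M1 (0.102) or F2 (0.121). Between these groups 3 of 8 beta cell markers were called lower and 1 of 3 delta and PP cell markers higher, and their part in the Dusp10 result was not tested.

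With the block 2 more members were called there, Dusp6 higher and Dusp4 lower, against 12.7% and 12.1% of all genes in these directions. Calls this few do not set the members apart from all genes. Dusp6 had a log2 fold change of 0.44 (SE 0.20, limma's adjusted p = 0.145; blocked adjusted p = 0.0303) and was higher in 4 of 4 (0.43 without the shallow library). Dusp4 was 16.8, 28.8, 36.1 and 30.2 RPKM in Ad-LacZ + JNK inhibitor and 10.9, 13.0, 26.0 and 21.1 RPKM in Ad-Cre + JNK inhibitor. It was lower in 4 of 4, by a log2 fold change of -0.53 (SE 0.25, limma's adjusted p = 0.161; blocked adjusted p = 0.0488), with overlapping groups (-0.59 without the shallow library). Between these groups the 5 tested stellate and fibroblast markers were also lower, with a median log2 fold change of -1.23. None of these markers was called without the block and 4 were called with it. Their part in the Dusp4 result was not tested. Dusp8 was higher in 3 of 4 (log2 fold change 0.39, SE 0.19, adjusted p = 0.172, and 0.40 without the shallow library), and without M2, the preparation that went the other way, it was 0.62 (adjusted p = 0.0142).

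**Figure D4:**
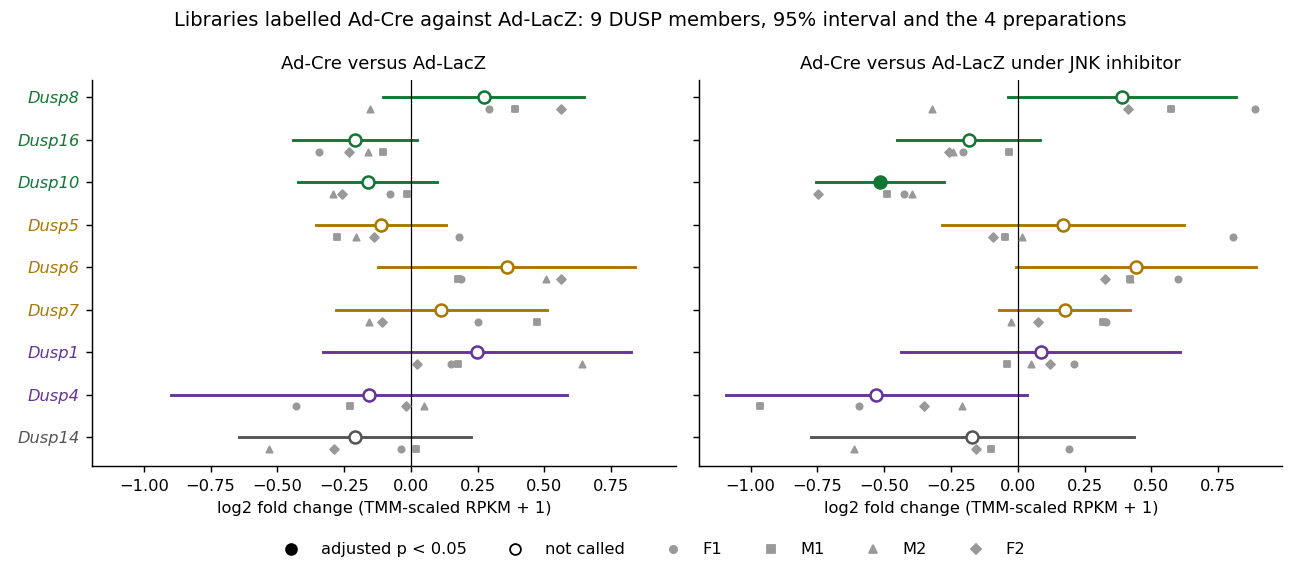
Log2 fold change of the 9 tested members (horizontal axis) between libraries labelled Ad-Cre and Ad-LacZ, without (left) and with the JNK inhibitor (right). Circles, bars and grey symbols are as in the plot of the inhibitor comparisons. Dusp10 with the inhibitor is the 1 filled circle, and Dusp6 is above 0 in all 4 preparations on both sides.

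Whether the inhibitor acted differently in Ad-Cre and Ad-LacZ was tested as an interaction over all 16 libraries. No member and none of the 12274 genes passed the adjusted threshold (0% called; 1 gene was called under quantile normalization and 2 with TMM over the filtered genes), with 3.23% of all genes at an unadjusted p under 0.05. Dusp10 was the 1 member among these (difference of log2 fold changes -0.34, SE 0.14, unadjusted p = 0.0308, limma's adjusted p = 1.00). On the TMM-scaled log2 scale of the test Dusp10 was higher with the inhibitor in 3 of 4 Ad-LacZ pairs. In Ad-Cre it was lower in 3 of 4 pairs on that scale and in 4 of 4 in RPKM. Without the shallow library the difference was -0.28. For Dusp8 the difference was 0.13 (95% interval -0.46 to 0.73) and for Dusp16 0.03 (95% interval -0.28 to 0.34).

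The JNK/p38-directed and ERK-directed phosphatases were also set against each other as shares of the family's transcripts. The 3 JNK/p38-directed members made up 30.4 ± 3.70% (SD, n = 4) of the summed RPKM of the 10 members in Ad-LacZ and 31.1 ± 5.45% in Ad-Cre. With the inhibitor they made up 20.4 ± 2.14% and 19.3 ± 2.71% (SD, n = 4 each). The lowest library without inhibitor held 24.4% and the highest with it 23.3%. The ERK-directed share was 28.9 ± 2.22% in Ad-LacZ, 29.9 ± 1.92% in Ad-Cre, 30.2 ± 1.77% in Ad-LacZ + JNK inhibitor and 38.8 ± 2.97% in Ad-Cre + JNK inhibitor (SD, n = 4 each). The sum of all 10 members was lowest in the last group, 72.9 ± 5.36 RPKM, beside 96.2 ± 22.6 RPKM in Ad-LacZ. The ratio of the JNK/p38 sum to the ERK sum was 0.861 to 1.33 in Ad-LacZ and 0.588 to 0.811 with the inhibitor, and 0.895 to 1.21 in Ad-Cre and 0.457 to 0.537 with it. A share also moves when other members change, so these values are descriptions without a test.

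**Figure D5:**
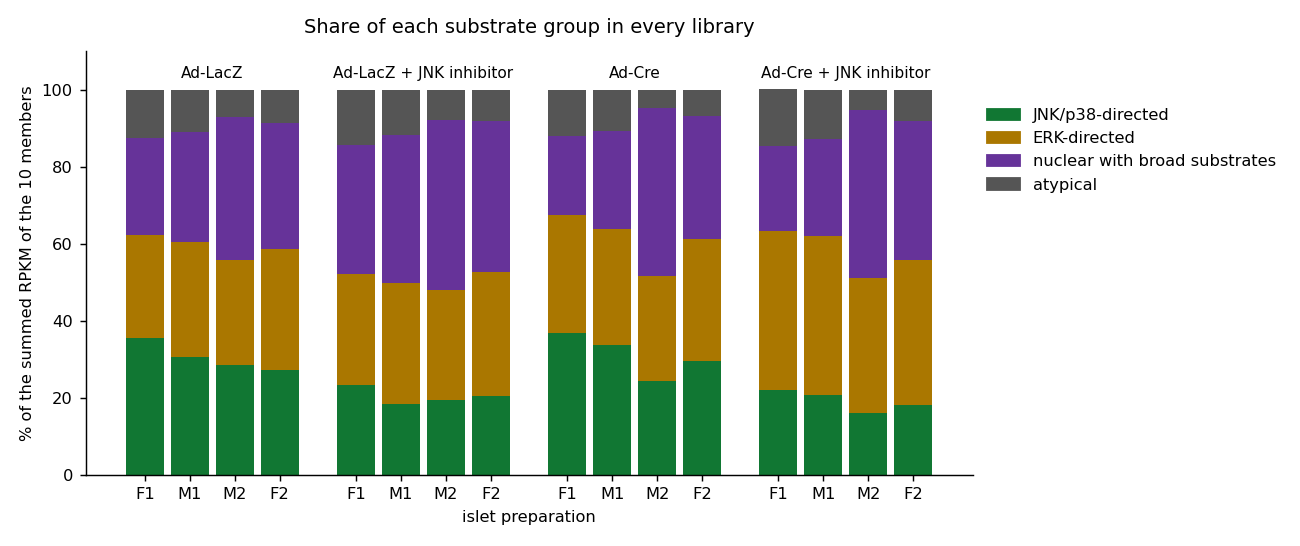
Share of the summed RPKM of the 10 members (vertical axis, percent) held by each substrate group in each of the 16 libraries (horizontal axis, by group and preparation). The green JNK/p38-directed part is 24.4 to 36.9% without and 16 to 23.3% with the inhibitor.

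Other genes of these pathways came from lists chosen by function. Among the AP-1 genes, Jun, itself a target of its own protein, was 20.8 ± 5.94 RPKM in Ad-LacZ and 9.68 ± 4.22 RPKM with the inhibitor (SD, n = 4 each), and its log2 fold change was -1.08 (SE 0.22, limma's adjusted p = 0.155; blocked adjusted p = 0.0372). In Ad-Cre it was 21.9 ± 6.72 and 9.57 ± 2.58 RPKM, a log2 fold change of -0.95 (SE 0.18, limma's adjusted p = 0.207; blocked adjusted p = 0.0096). Jund had log2 fold changes of -0.68 (adjusted p = 0.485) and -0.85 (adjusted p = 0.475; blocked adjusted p = 0.0298). None of the 7 tested AP-1 genes, 9 MAP kinases, 14 other phosphatases and 17 ERK feedback and ERK-induced genes was called with the inhibitor in either background without the block. The largest differences among the other phosphatases were those of Dusp26 (-0.33, adjusted p = 0.784) and Dusp3 (-0.23, adjusted p = 0.723) in Ad-LacZ, and of Ptprr (-0.56, adjusted p = 0.798) and Dusp19 (-0.17, adjusted p = 0.826) in Ad-Cre. Among the MAP kinases they were those of Mapk13, the gene of p38 delta (0.46, adjusted p = 0.82), and Mapk10 (-0.35, adjusted p = 0.845) in Ad-LacZ. In Ad-Cre they were those of Mapk13 (0.79, adjusted p = 0.246; blocked 0.0348) and Mapk14, the gene of p38 alpha (-0.32, adjusted p = 0.76). Among the ERK-induced genes they were those of Egr2 (0.80, adjusted p = 0.893) and Errfi1 (0.45, adjusted p = 0.983) in Ad-LacZ, and of Etv1 (0.34, adjusted p = 0.753) and Fos (0.31, adjusted p = 0.488; blocked 0.0488) in Ad-Cre. The blocked calls of Mapk13 and Fos stand beside 4.66% of all genes called higher with the block. Mapk13 was low, at mean levels of 0.823 RPKM in Ad-LacZ and 0.997 RPKM in Ad-Cre. With the inhibitor it was 1.63 and 2.19 RPKM. Its means without the inhibitor were under the filter of 1 RPKM. It may thus have entered these tests through the inhibitor libraries, where it was high, and its differences are no support for a change.

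Between the viruses several of these genes were called. Of the 17 ERK feedback and ERK-induced genes tested, 3 passed as higher and 1 as lower with the virus labelled Ad-Cre, beside 7.29% of all genes called higher and 9.58% called lower. Egr1, an immediate early gene of ERK signalling, rose from 2.49 ± 0.334 to 5.23 ± 1.04 RPKM (SD, n = 4) in mean level, or by 0.82 on the log2 scale (SE 0.11, limma's adjusted p = 0.00275). Ccnd1, which encodes cyclin D1, rose from 37.7 ± 3.45 to 71.2 ± 12.7 RPKM (log2 fold change 0.88, adjusted p = 0.0132). Fos rose (0.46, adjusted p = 0.0209) and Etv1 fell (-0.54, adjusted p = 0.0108). Of 14 other phosphatases 1 was higher, Dusp12 (0.59, adjusted p = 0.0128), and 2 lower, Ptprr, a tyrosine phosphatase of ERK and p38 (-1.35, adjusted p = 0.0198), and Ppm1b (-0.71, adjusted p = 0.0155). Of 7 AP-1 genes Atf3 (1.30, adjusted p = 0.0107), Junb (0.70, adjusted p = 0.0377) and Fos were higher and Atf2 was lower (-0.64, adjusted p = 0.00694), and of 7 MAP kinases none was called. With the block 2 of these kinases were called lower, against 18.7% of all genes: Mapk10, the gene of JNK3 (-0.41, adjusted p = 0.244; blocked 0.0376), and Mapk8, the gene of JNK1 (-0.30, adjusted p = 0.166; blocked 0.038). The block raised the counts to 5 higher and 1 lower for the ERK-induced list and to 2 higher and 4 lower for the other phosphatases. With the block 15.7% of all genes were called higher and 18.7% lower. Their medians were 0.28 for the ERK-induced list, -0.01 for the other phosphatases, 0.06 for AP-1 and -0.01 for the kinases, beside -0.01 over all genes.

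Under the inhibitor the libraries labelled Ad-Cre again had higher Dusp12 (0.67, adjusted p = 0.00891) and lower Ptprr (-1.72, adjusted p = 0.00392) and Ppm1b (-0.95, adjusted p = 0.00299), 3 of the 14 other phosphatases, beside 10.1% of all genes called higher and 10.5% called lower. Of 17 ERK-induced genes Ccnd1 (1.25, adjusted p = 0.0114) and Egr1 (0.52, adjusted p = 0.04) were higher and Spred2 was lower (-0.35, adjusted p = 0.0447; blocked 0.0565). Of 7 AP-1 genes Atf3 was higher (1.14, adjusted p = 0.00456) and Atf2 lower (-0.68, adjusted p = 0.0188). Of 9 MAP kinases none was called, the largest differences being those of Mapk13 (0.43, adjusted p = 0.177) and Mapk10 (-0.37, adjusted p = 0.156). No gene of these lists passed the interaction test. Its largest differences were those of Ptprr (-0.37) and Dusp26 (0.25), Mapk13 (0.34) and Mapk3 (0.31), Egr2 (-0.67) and Spred1 (-0.49), and Junb (-0.53) and Fosl2 (-0.22), each with an adjusted p of 1.00.

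Over the 16 libraries the log2 levels of Dusp8 and Dusp16 had a Pearson correlation of 0.83, the highest of the 36 pairs of tested members. The genes most like Dusp16 over these libraries were Klf11 (0.96), Pik3ip1 (0.93) and Rps6kl1 (0.91), and those most like Dusp8 were 2310022B05Rik (0.93), Kcnab3 (0.89) and Sdc3 (0.87), out of 12274 genes. Dusp8 and Dusp16 were picked for this after their values were seen. The 16 points share 4 preparations and 4 groups, so they are not independent.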

How the data were processed

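The authors aligned poly(A) paired-end reads and deposited RPKM values per gene (GRCm38 in the submitters' processing notes). The gene lengths they used are not given in the sources used here, and 3 further columns that match no sample label were not used. RPKM were divided by TMM factors (30% of ratios and 5% of levels trimmed), a pseudocount of 1 was added and log2 taken. A fold change is on this log2(RPKM + 1) scale, which understates changes of low genes. Genes that exceeded 1 RPKM in 4 or more of the libraries compared were tested with limma 3.58.1 in R 4.3.3 (empirical Bayes with trend) on its 8 libraries, and the interaction on all 16. P-values were adjusted by Benjamini-Hochberg over all genes tested, with 0.05 as the threshold. Single values were also tested by 36 two-sided exact permutation tests, whose p-values are not adjusted. These tests exchange the 8 libraries of a comparison freely and so ignore the pairing by preparation. The criteria of the study were an unadjusted p under 0.05 and a fold change of 1.5 for the virus or 1.2 for the inhibitor. Reads per library were recovered from the steps of the low RPKM values.

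Libraries of the same preparation come from the same animals. Their residuals correlated (0.131 to 0.826 over the 4 comparisons), so the numbers pair them, and a blocked fit, with the preparation as a term, is given where it changed the call of a gene the text names. Medians and counts of lists are descriptions. From the lists of other genes, those called (at most 4), or where none was called the 2 with the largest fold change, were named. The members and lists were chosen with earlier results of these data known. On simulated data for Ad-Cre against Ad-LacZ (11461 genes), 73.23% of 198 tested genes changed 2-fold were recovered, and 6.452% of calls were false. The simulated noise was independent between genes and libraries, without the pairing by preparation. The inhibitor comparisons were not simulated, so these values do not describe them. Alternatives were the pseudocount, the filter, the scaling, the trend, all libraries in 1 fit, the block and each preparation left out. TMM over the filtered genes was a further alternative, chosen after seeing the data. Figures were drawn with matplotlib 3.10.9.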

Additional observations from a re-analysis of the deposited data

Results flagged for a closer look

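In 2 of the 40 groups of 4 libraries examined, 1 library stood apart from the others by Dixon's criterion, which chance meets in about 1 in 20 groups. Dusp8 in Ad-Cre F1 was 18.9 RPKM, beside 16.6, 16.3 and 16.5 RPKM in the other libraries of the group. Dusp16 in Ad-Cre M2 was 5.74 RPKM, beside 4.00, 4.16 and 4.22 RPKM. Both libraries lie on the side away from the inhibitor libraries.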

How the results depend on the processing

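Of 603 values of members under alternatives, 546 kept their direction and side of the threshold, 24 lost a call, 7 gained one and 26 changed sign. The cause was not tested. Number of members called: for the virus, 0 became 1 with the replicate block (Dusp6). For the inhibitor in Ad-Cre, 1 became 0 without a filter, on RPKM as deposited, with the filter lowered to 0.1 RPKM, under quantile normalization, without the trend or with TMM over the filtered genes (chosen after seeing the data), 2 with all 16 libraries, 3 with the replicate block (Dusp8, Dusp16 and Dusp1), and 0 to 0 with a preparation or the shallow library left out. For the inhibitor in Ad-LacZ, 2 became 0 with no filter or RPKM as deposited, and 0 to 1 with a preparation left out (Dusp8 stayed called without F2). For the virus under the inhibitor, 1 became 3 with the block (Dusp10, Dusp6 and Dusp4), and 0 to 2 with a preparation left out. The interaction stayed at 0. The block changed no other member's call.

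RPKM as deposited moved the median of all genes to -0.14 for the inhibitor in Ad-Cre and the virus under the inhibitor, and to -0.12 for the interaction. With it, the inhibitor in Ad-Cre gave -0.12 for Dusp5, -0.11 for Dusp7 and -0.14 for Dusp14, the virus under the inhibitor gave -0.03 for Dusp1 (-0.03194), and the interaction gave -0.04 for Dusp6 (-0.04418), -0.06 for Dusp7 (-0.0646), -0.00441 for Dusp8, -0.07 for Dusp16 (-0.07132) and -0.08 for Dusp14 (-0.0831). With a pseudocount of 0.1, Dusp14 was -0.003641 (inhibitor in Ad-Cre) and Dusp16 -0.0004325 (interaction). Quantile normalization gave -0.002088 for Dusp5 and -0.2199 for Hspa5, and TMM over the filtered genes -0.01229 for Dusp14, all for the inhibitor in Ad-Cre. With a preparation or library left out, the inhibitor in Ad-Cre ranged from -0.05001 to 0.1188 for Dusp5, -0.04829 to 0.08172 for Dusp7, -0.1055 to 0.05397 for Dusp4 and -0.07577 to 0.08251 for Dusp14. Dusp7 ranged from -0.1572 to 0.04318 for the inhibitor in Ad-LacZ and -0.005207 to 0.2217 for the virus, and Dusp5 from -0.04163 to 0.2563 for the virus under the inhibitor. For the interaction, Dusp8 ranged from -0.01931 to 0.215, Dusp14 from -0.003649 to 0.1329 and Mapk13 from -0.01243 to 0.568. Depth limits Dusp9, on 7 to 49 reads.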
